A study of Mus musculus with 3 samples.

Results

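Bmp15 and Gdf9 encode the paired growth factors by which a mouse oocyte acts on the cumulus cells around it, and their mRNAs were followed across young, aged and secretome-treated aged eggs. Members were all rows of the deposited transcript table under either gene symbol. There were 2 such rows, 1 for each gene, of 9126 rows under 6104 symbols. RNA came from oocytes of ICR mice that were taken at the germinal vesicle stage and matured in M16 medium for 16 to 18 h to metaphase II, where meiosis halts until a sperm arrives. The aged-sec library held oocytes of aged mice matured with secretome, the substances released into medium by mesenchymal stem cells of human umbilical cord, the aged library held oocytes of aged mice matured without it, and the young library held oocytes of young mice matured without it. The sources used here give no age for either class of mice, and all 3 samples carry the secretome in their treatment field, which is why the groups rest on the titles. Each library pooled 20 oocytes from 4 mice and each group had 1 library. No replicate error exists for any value, no test was made, and each difference is one between 2 libraries.

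Levels are given as TPM, abundances per unit of transcript length scaled to a total of 1000000 in each library. The deposited table holds part of each library, with 32.1% of the TPM total of the aged-sec library, 32.5% of the aged library and 22.9% of the young library. Its lowest aged over young ratio was 1.2, so every row was higher in aged than in young oocytes and a transcript that was lower with age could not appear. That direction is therefore no result for either gene. Rows chosen for a high aged value can also have a low aged-sec over aged ratio with no effect of the treatment. TPM keeps no read number, so the depth is unknown and no counting interval could be given. In a pool of oocytes, fewer cells with a transcript and less of it per cell cannot be told apart.

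BMP15 and GDF9 are secreted members of the transforming growth factor beta superfamily. As background, the oocyte makes them as proproteins that are cleaved on the way out of the cell, and the mature proteins form homodimers or pair with each other. On cumulus and granulosa cells they bind the type II receptor BMPR2 with a type I receptor, BMPR1B for BMP15 and TGFBR1 for GDF9, and signal through SMAD proteins. They are known for granulosa cell growth, cumulus expansion and the cumulus cells' supply of metabolites to the oocyte, and mice without Gdf9 are infertile because their follicles stop at an early stage.

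Bmp15 lies on the X chromosome and has a single mRNA in the RefSeq annotation of GRCm38.p6, so its row (NM_009757) stands for all annotated mRNA of the gene. GENCODE release M21 gives it 1 transcript of 3060 nt in 2 exons, with 1176 coding nt. Gdf9 lies on chromosome 11 and has 4 RefSeq mRNAs. Its row is 1 predicted variant (XM_006532220), and the other 3 mRNAs, including the curated one, were not analysed here. GENCODE gives Gdf9 3 transcripts, of which 1 codes for protein with 1323 coding nt in 1793 nt. In the RefSeq annotation the span of Gdf9 overlaps its neighbour Uqcrq, a respiratory chain subunit gene, while Bmp15 overlaps no gene. The Gdf9 value is thus that of 1 variant, and reads shared with the other variants or with the neighbour could be divided among them by the quantification.

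The sequence upstream of Bmp15 is shown because 4 regulators of oocyte transcription, described further on, had rows in the table. Nobox, the gene of the factor whose element is marked below, was not among them. RefSeq's promoter table for GRCm38.p6 places these 250 bases at chrX:6320725-6320974 on the minus strand, ending next to the annotated start of the mRNA, and the capitals mark the TAATTA that is read as an element of the oocyte homeobox factor NOBOX.
Bmp15 upstream: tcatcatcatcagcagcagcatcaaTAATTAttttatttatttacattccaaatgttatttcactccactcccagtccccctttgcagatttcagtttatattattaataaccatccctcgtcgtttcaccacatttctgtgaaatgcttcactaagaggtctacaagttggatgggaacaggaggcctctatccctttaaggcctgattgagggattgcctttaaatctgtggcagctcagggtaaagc
Motifs were searched on both strands of the 250 upstream bases, and the same stretch was searched in all 32851 entries of the promoter table. TAATTA or TAATTG occurred 1 time, from 225 to 220 bases before the start, and in 11.3% of all entries. The E-box CANNTG, the motif of basic helix-loop-helix factors such as FIGLA and SOHLH2, occurred 1 time, from 201 to 196 bases before the start, against 66.2% of all entries with at least 1. TATAAA, the TATA box, occurred 1 time on the opposite strand, from 155 to 150 bases before the start, and in 12.4% of all entries. AGGTCA, a core recognition motif of nuclear receptors, had 0 matches in these letters and was held by 14% of all entries. None of the matches overlapped another. These matches describe the letters of the window and do not show that a factor binds there.

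Bmp15 was among the most abundant transcripts of the table in every library, and its level in aged-sec oocytes stayed close to that in aged oocytes. It stood at 799 TPM in aged-sec, 817 TPM in aged and 585 TPM in young oocytes. By level it ranked 50th in the aged-sec library, 49th in the aged library and 49th in the young library among all rows. The 2 libraries from aged mice were thus alike in TPM as deposited. The young library was the low one, which against the aged library was fixed by the selection of the table. Aged over young was 1.40, a log2 ratio of 0.48 with 0.5 TPM added to each value. Aged-sec over aged was 0.978, a log2 ratio of −0.03, or a difference of −17.6 TPM. Aged-sec over young was 1.37, a log2 ratio of 0.45. With listed rows scaled to equal medians, which shifts the log2 ratio of aged over young by −0.63 and that of aged-sec over aged by 0.20 for every row, the first turned to −0.15 and the second to 0.16. The deposited ratios of the authors' table, 1.40 and 0.978, equal the quotients of its TPM columns.

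The listed Gdf9 variant was a rare transcript, and its level in aged-sec oocytes lay near the young value. It stood at 4.46 TPM in aged-sec, 6.81 TPM in aged and 4.36 TPM in young oocytes. Here the aged library was the high one, which against the young library was fixed by the selection of the table. The aged-sec and young libraries differed by 0.1 TPM. Aged over young was 1.56, a log2 ratio of 0.59. Aged-sec over aged was 0.655, a log2 ratio of −0.56, or a difference of −2.35 TPM. Aged-sec over young was 1.02, a log2 ratio of 0.03. With equal medians aged-sec over aged kept its direction at −0.38, while aged-sec over young turned to −0.37. In the authors' deposited table its ratios are 1.56 and 0.655. The variant ranked 3061st in the aged-sec library, 2693rd in the aged library and 2556th in the young library.

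**Figure D1:**
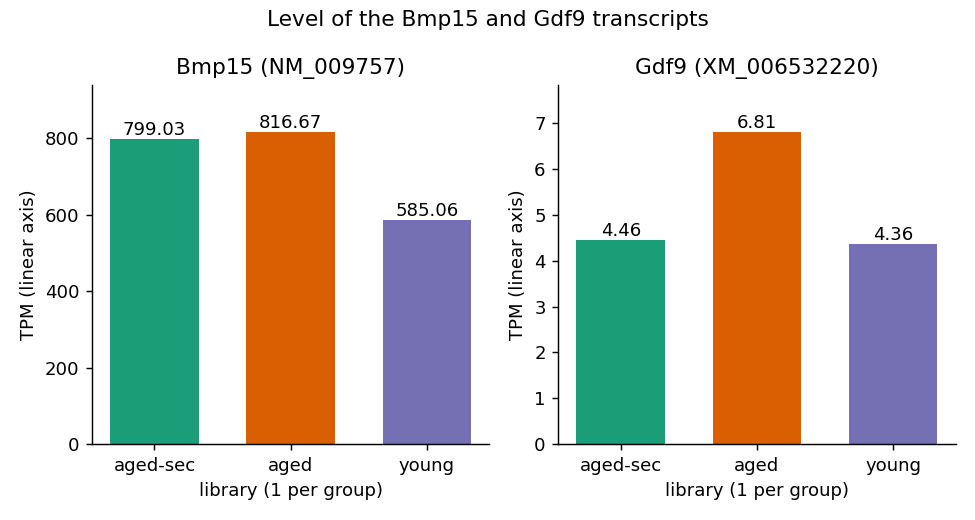
TPM of the Bmp15 transcript (left) and of the predicted Gdf9 variant (right) in the aged-sec, aged and young libraries, each on its own linear axis from 0, with 1 bar per library and no error bar because each group had 1 library. Bmp15 was at 799 TPM in aged-sec and 817 TPM in aged oocytes against 585 TPM in young oocytes, whereas the Gdf9 variant was at 4.46 TPM in aged-sec oocytes, 6.81 TPM in aged and 4.36 TPM in young oocytes.

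In TPM as deposited, the 2 rows had different patterns over the 3 libraries. Of the aged minus young difference, the aged-sec library lacked 7.62% for Bmp15 and 95.9% for the Gdf9 variant. On the log2 scale the aged-sec value was nearer to young than to aged for Gdf9 and not for Bmp15, and 41.5% of all rows were nearer to young. This contrast did not hold with listed rows rescaled, though by construction the scalings remove the excess on which the rows were selected. With equal medians both were nearer to young, Bmp15 at a log2 distance of 0.014 to young and 0.16 to aged, and Gdf9 at 0.40 to young and 0.42 to aged. By median of ratios Bmp15 was nearer to young (0.052 to young and 0.26 to aged) and Gdf9 nearer to aged (0.47 to young and 0.32 to aged). Under these scalings the aged minus young difference was negative for Bmp15 and near 0 or negative for Gdf9, so the 7.62% and 95.9% apply to TPM as deposited alone. Both rows had less TPM in aged-sec oocytes than in aged ones, as did 70.6% of all rows, and both were above young, as were 75.8% of all rows. Bmp15 was 179-fold above the Gdf9 variant in TPM in aged-sec, 120-fold in aged and 134-fold in young oocytes. This compares a whole gene with 1 of 4 annotated mRNAs and is not a ratio of the genes' output.

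Neither row passed the size rule, a log2 ratio of at least 1 in either direction where the larger of both values reached 10 TPM. The Gdf9 variant was under 10 TPM in all 3 libraries and could not pass. In aged over young the rule was met by 18.2% of the 2186 rows with enough TPM. In aged-sec over aged it was met by 0.223% of 2239 rows as higher and by 2.95% as lower. In aged-sec over young it was met by 17.1% of 1999 rows as higher and by 0.45% as lower. The median of all rows was 1.71 for aged over young, 0.818 for aged-sec over aged and 1.41 for aged-sec over young.

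Because the spread of ratios depends on level, each row was also set beside the rows whose mean TPM lay within 2-fold of its own. For Bmp15 there were 73 such rows. Their aged over young ratio had a median of 1.39 and an interquartile range of 1.26 to 1.63, around the 1.40 of Bmp15. Their aged-sec over aged ratio had a median of 1.02, with an interquartile range of 0.915 to 1.09, around the 0.978 of Bmp15. For aged-sec over young the median was 1.39 and the interquartile range 1.24 to 1.66, around the 1.37 of Bmp15. For the Gdf9 variant there were 1973 such rows, with a median aged over young ratio of 1.60 and an interquartile range of 1.36 to 2.07, around its 1.56. Their aged-sec over aged ratio had a median of 0.851 and an interquartile range of 0.689 to 1.03. The 0.655 of Gdf9 lay just under that range, and 411 of the 1973 rows (20.8%) were lower still. Their aged-sec over young ratio had a median of 1.40 and an interquartile range of 1.09 to 1.94. The 1.02 of Gdf9 lay under that range too, and 393 of the 1973 rows (19.9%) were lower still. These values describe the libraries and give no p-value.

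**Figure D2:**
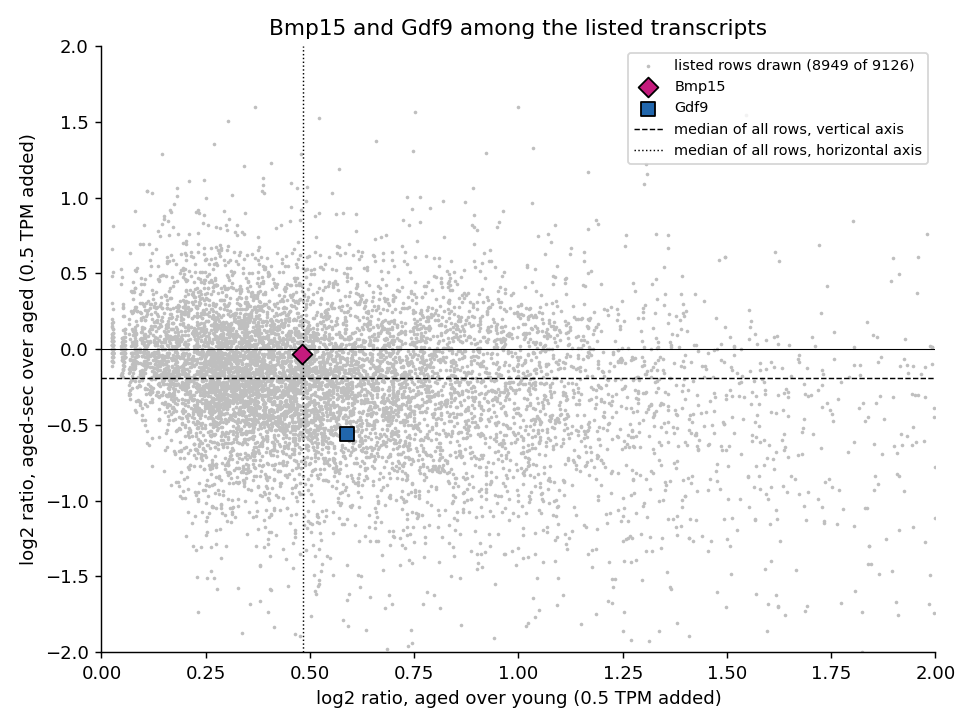
Each grey point is 1 of the rows that fall within the axes, placed by its log2 ratio of aged over young (horizontal) and of aged-sec over aged (vertical), with 0.5 TPM added; dashed and dotted lines give the medians of all rows, −0.19 on the vertical and 0.48 on the horizontal axis. Bmp15 (diamond) lies at 0.48 and −0.03, and the Gdf9 variant (square) at 0.59 and −0.56.

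The genes with the most similar pattern were taken, for each row, as the 5 other symbols of like level with the smallest distance of the 2 log2 ratios, over 3 libraries. Nearest to Bmp15 were Skp1a (distance 0.038), a subunit of SCF ubiquitin ligases, B9d1 (0.039), a ciliary transition zone gene, Srp14 (0.041), a signal recognition particle subunit, Rbx1 (0.053), a RING subunit of cullin ligases, and Nup37 (0.057), a nuclear pore subunit. Skp1a stood at 1189 TPM in aged-sec, 1185 TPM in aged and 855 TPM in young oocytes. Nearest to the Gdf9 variant were Akr1e1 (0.012), an aldo-keto reductase gene, the zinc finger gene Zfp936 (0.018), Zranb3 (0.028), a DNA annealing helicase, Uri1 (0.04), a prefoldin-like protein, and Brms1 (0.043), a part of a histone deacetylase complex. Akr1e1 stood at 3.59 TPM in aged-sec, 5.5 TPM in aged and 3.46 TPM in young oocytes. The likeness depended on the rows searched. Without the limit on level 0 of the 5 remained for Bmp15 and 3 of the 5 for Gdf9.

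Around the 2 factors, 9 lists of their signalling pathway held 144 genes, of which 33 had 56 rows in the table. In 40 of these rows (71.4%) the aged-sec value was below the aged one, close to the 70.6% of all rows. Their median ratio was 1.61 for aged over young and 0.815 for aged-sec over aged, against 1.71 and 0.818 over all rows. The size rule was met as higher by 1 of the 19 rows with enough TPM in aged over young, a row of Tbpl2, against 18.2% of all rows. It was met as higher by 2 of 16 in aged-sec over young, the row of Tbpl2 and 1 of Tgfb2, against 17.1%. In aged-sec over aged it was met by 0 of 19 in either direction. The shares of all rows there were also small, 0.223% as higher and 2.95% as lower. Genes with no row are not analysed here, and the sums given below cover only the listed rows of a gene.

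Among other ligands of the superfamily 2 of 29 genes had rows, both abundant. Tgfb2, a transforming growth factor beta, had 3 rows that summed to 576 TPM in aged-sec, 506 TPM in aged and 325 TPM in young oocytes. Its minor variant NM_001329107 met the size rule as higher in aged-sec than in young oocytes, at 37.3 TPM in aged-sec, 26.3 TPM in aged and 18.4 TPM in young oocytes. With a log2 ratio of 1.005 in TPM as deposited, this variant was just at the limit of 1. Bmp5, a bone morphogenetic protein, stood at 148 TPM in aged-sec, 205 TPM in aged and 140 TPM in young oocytes. For Tgfb2 aged-sec was the highest library, and for Bmp5 it lay near the young one. In TPM as deposited, all 3 Tgfb2 rows, variants of 1 gene, were above aged in aged-sec oocytes and the Bmp5 row was below. Of all 9126 rows, 2594 were above aged and 6439 below. Of the 13 extracellular antagonists, such as follistatin and gremlin, 0 had a row. Of the 9 genes of proprotein processing 3 had rows, and the most abundant was the metalloproteinase gene Tll1, whose 2 rows summed to 3.03 TPM in aged-sec, 5.47 TPM in aged and 2.96 TPM in young oocytes.

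Of the 15 receptors and coreceptors 4 had rows, and they included the receptors named above for both factors. Bmpr1b, the type I receptor of BMP15, had 6 rows that summed to 50.6 TPM in aged-sec, 59.4 TPM in aged and 37.3 TPM in young oocytes. Bmpr2, the shared type II receptor, had 2 rows with sums of 20.4, 22.2 and 14.0 TPM in aged-sec, aged and young oocytes. Tgfbr1, the type I receptor of GDF9, had 2 rows with sums of 4.12 TPM in aged-sec, 2.98 TPM in aged and 1.33 TPM in young oocytes. The coreceptor gene Tgfbr3 stood at 9.45 TPM in aged-sec, 9.22 TPM in aged and 5.91 TPM in young oocytes. Against aged oocytes, in TPM as deposited, summed Bmpr1b and Bmpr2 were lower in aged-sec oocytes and summed Tgfbr1 and Tgfbr3 were higher. The ratios were 0.852 for Bmpr1b, 0.921 for Bmpr2, 1.38 for Tgfbr1 and 1.02 for Tgfbr3. All 4 lay above 0.818, the median of all rows, which is taken over single rows and not over sums of a gene's rows. Over the 11 single receptor rows the median was 0.840. Scaling to equal medians shifts every log2 ratio of aged-sec over aged by 0.20. By row, 8 of the 11 were below aged in TPM as deposited, against 70.6% of all rows.

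Of the 8 SMAD genes 2 had rows, all at low level. Smad4, the common partner of receptor-activated SMADs, stood at 1.49 TPM in aged-sec, 5.97 TPM in aged and 1.79 TPM in young oocytes. The 2 rows of Smad3, a SMAD of the TGFBR1 branch, summed to 1.90 TPM in aged-sec, 1.99 TPM in aged and 0.72 TPM in young oocytes. The Smad3 rows went opposite ways between aged-sec and aged oocytes, with XM_006510819 at 0.97 TPM in aged-sec, 1.64 TPM in aged and 0.46 TPM in young oocytes, and NM_016769 at 0.93 TPM in aged-sec, 0.35 TPM in aged and 0.26 TPM in young oocytes. Of the 3 libraries the aged one was the high one for Smad4. Of the 24 SMAD regulators 8 had rows. In 16 of their 20 rows the aged-sec value was below the aged one, against 70.6% of all rows. Several of these rows are variants of the same gene. Usp15, a deubiquitinase that acts on receptors and SMADs, had 4 rows summing to 399 TPM in aged-sec, 496 TPM in aged and 291 TPM in young oocytes. Usp9x, which removes ubiquitin from SMAD4, had 4 rows summing to 79.7 TPM in aged-sec, 82.0 TPM in aged and 42.2 TPM in young oocytes. The ligase gene Nedd4l had 6 rows summing to 41.2 TPM in aged-sec, 59.1 TPM in aged and 41.1 TPM in young oocytes. Rnf111, a ligase for SMAD repressors, stood at 11.3 TPM in aged-sec, 12.9 TPM in aged and 9.34 TPM in young oocytes.

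**Figure D3:**
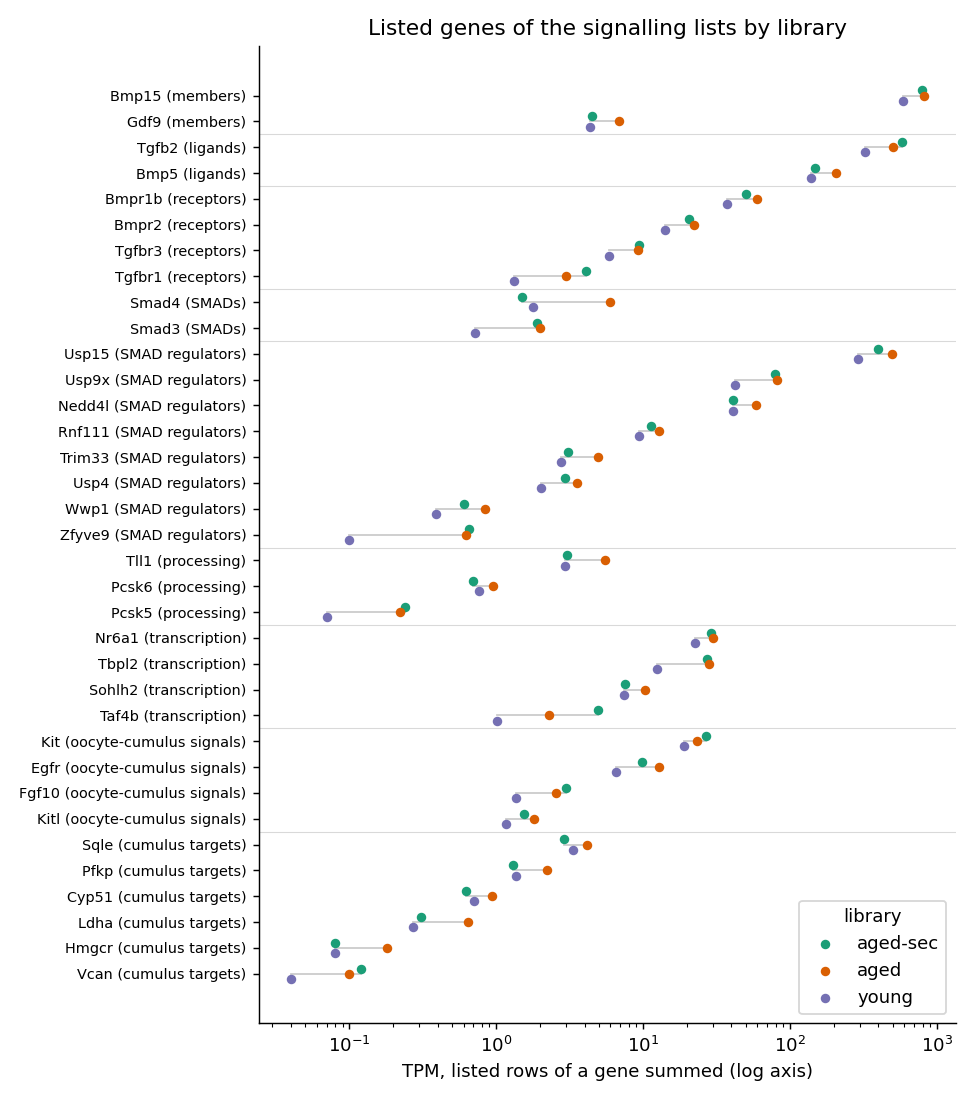
TPM of Bmp15, the Gdf9 variant and the 33 pathway genes with a listed row, with the listed rows of a gene summed, on a log axis. Variants without a row are not in the sums. Each gene has 1 point per library, shifted slightly in height so that equal values stay visible. Bmp15 and Tgfb2 lead with 817 and 506 TPM in aged oocytes, and every young point lies left of its aged point because the table was selected that way.

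Of the 9 regulators of oocyte transcription 4 had rows. Tbpl2, the oocyte's paralogue of the TATA-binding protein, stood at 27.4 TPM in aged-sec, 28.1 TPM in aged and 12.4 TPM in young oocytes. In TPM as deposited Tbpl2 met the size rule as higher in aged-sec and in aged than in young oocytes. Its log2 ratios were 1.14 for aged over young and 1.11 for aged-sec over young. Scaling to equal medians shifts these by −0.63 and −0.44, to below 1. Nr6a1, a nuclear receptor known as a repressor of both Bmp15 and Gdf9, stood at 28.8 TPM in aged-sec, 29.8 TPM in aged and 22.6 TPM in young oocytes. In TPM as deposited, in these 2 genes as in Bmp15, both libraries from aged mice were alike. Aged above young was fixed by the selection of the table, and aged-sec was above young in 75.8% of all rows. Sohlh2, a helix-loop-helix factor of early oocytes, stood at 7.52 TPM in aged-sec, 10.4 TPM in aged and 7.41 TPM in young oocytes. Taf4b, a TFIID subunit of the germ line, stood at 4.95 TPM in aged-sec, 2.28 TPM in aged and 1.02 TPM in young oocytes. Nobox and Figla had no row and were not analysed here.

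Of the 17 genes of other signals between oocyte and cumulus cells 4 had rows. Kit, the oocyte's receptor for kit ligand, stood at 26.9 TPM in aged-sec, 23.2 TPM in aged and 19.0 TPM in young oocytes. The row of Egfr, the receptor of the ovulatory EGF-like signals, stood at 9.91 TPM in aged-sec, 12.9 TPM in aged and 6.50 TPM in young oocytes. The growth factor genes Fgf10 and Kitl were under 3 TPM in all 3 libraries. Of the 20 genes known to respond to the factors in cumulus cells 6 had rows, all under 5 TPM. Their rows summed to 5.36 TPM in aged-sec, 8.24 TPM in aged and 5.81 TPM in young oocytes, and were led by Sqle, an enzyme of cholesterol synthesis, at 2.92 TPM in aged-sec, 4.18 TPM in aged and 3.34 TPM in young oocytes.

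The label of oocyte was set beside markers. Of 18 oocyte markers 3 had rows, Zp2, Kit and Ddx4, summing to 47.5 TPM in aged-sec, 63.2 TPM in aged and 39.9 TPM in young oocytes. In aged-sec, aged and young oocytes Zp2 stood at 20.5, 39.3 and 20.5 TPM and Kit at 26.9, 23.2 and 19.0 TPM. Ddx4 was at 0.17, 0.69 and 0.34 TPM in the same order. Kit was thus higher in aged-sec than in aged oocytes, and Zp2 and Ddx4 were lower. The Zp2 and Ddx4 rows are each 1 predicted variant and may not give the level of the whole gene. Of 12 markers of granulosa or cumulus cells 4 had rows, Nr5a2, Kitl, Hsd3b1 and Fshr, summing to 4.81 TPM in aged-sec, 6.59 TPM in aged and 3.30 TPM in young oocytes. Fshr, the defining receptor of granulosa cells, stood at 0.22 TPM in aged-sec, 0.55 TPM in aged and 0.03 TPM in young oocytes. These values are near the floor, as the values step by 0.01 TPM. In aged-sec, aged and young oocytes Nr5a2 stood at 2.14, 3.03 and 2.06 TPM and Kitl at 1.56, 1.82 and 1.17 TPM. Hsd3b1 was at 0.89, 1.19 and 0.04 TPM in the same order. The 4 of 6 theca or stroma markers with rows summed to 3.38 TPM in aged-sec, 4.42 TPM in aged and 2.38 TPM in young oocytes. Pecam1, the 1 of 6 endothelial and blood markers with a row, stood at 2.59 TPM in aged-sec, 4.31 TPM in aged and 1.77 TPM in young oocytes. The other markers have no row here, which in a table selected on the age ratio does not mean a level of 0. The part of cumulus cell RNA in the Bmp15 and Gdf9 values was not tested.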

How the data were processed

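Per the labels' protocols, cDNA was made with SMART-Seq2 and libraries with a transposon-based method. The series' design text names the DNBSEQ platform. Which aligner, quantifier and build were used is not given in the sources used here. A single deposited table gives RefSeq transcripts in TPM for the 3 libraries and, per the file headers, the authors' aged over young ratio and aged-sec over aged ratio. These ratios equal the TPM quotients within a relative difference of 6.6e-07. The table holds 0 zeros.

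TPM were used as deposited, with 0.5 TPM added before log2 ratios. The members and lists were chosen with earlier results of these data known. Named genes were the members, the 5 rows most like each, without predicted-gene, Rik and pseudogene names, and up to 4 genes per list, those past the size rule first and then those of highest mean TPM. Sequences are from RefSeq's promoter table, in which 1 of the members was matched by symbol, and gene models from GENCODE M21. With 1 library per group no test was possible; ratios and counts were checked on simulated data. Alternatives were other pseudocounts, scalings and filters. Python 3.11.15, numpy 2.4.6, pandas 2.3.3 and matplotlib 3.10.9 were used.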

Additional observations from a re-analysis of the deposited data

How the results depend on the processing

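With no spread between replicates, a log2 ratio was taken as unmoved within 0.1. The ratios of Bmp15 and Gdf9 stayed within that limit with no pseudocount, with 0.1 or 1 TPM, and with rows summed by symbol. They moved when listed rows were scaled to equal medians or by median of ratios, which shifts aged over young by −0.63 or −0.79, aged-sec over aged by 0.20 or 0.29 and aged-sec over young by −0.44 or −0.50. By construction these scalings remove the excess on which the rows were selected. Under them Bmp15 was −0.15 or −0.31 for aged over young, 0.16 or 0.26 for aged-sec over aged and 0.014 or −0.052 for aged-sec over young, and Gdf9 was 0.011 or −0.14, −0.38 or −0.29, and −0.37 or −0.43. Of these the signs turned for both aged over young values of Bmp15, both of its aged-sec over aged values, 1 of its aged-sec over young values, the second aged over young value of Gdf9 and both of its aged-sec over young values.

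The share of rows past the size rule was 3.64% for aged over young with equal medians. For aged-sec over aged it was 0.493%, 0.725%, 0.443% and 0.125% as higher (no minimum TPM, at least 1 TPM, equal medians, curated transcripts only) and 5.71%, 7.8% and 1.92% as lower (the first 3). For aged-sec over young it was 11.2% (no minimum) and 4.74% (equal medians) as higher, and 0.833%, 1.22% and 1.17% as lower (no minimum, at least 1 TPM, equal medians). The share of rows lower in aged-sec than in aged was 56.6% with equal medians and 71.3% to 71.8% otherwise. Searching all rows at 1 TPM or more kept 0 of the 5 genes most like Bmp15 and 3 of the 5 most like Gdf9. Leaving out a library was not possible with 1 per group, and the unknown depth limits the Gdf9 variant more than Bmp15.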
